A study of Homo sapiens with 6 samples.

Results

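Class I antigen presentation was read here from 8 genes in HMV-II, a melanoma cell line of the human vaginal mucosa, with and without knockdown of EZH2, the catalytic subunit of the PRC2 complex that places the repressive mark H3K27me3. The members were given as a list of 9 gene symbols, and 8 of them had a row among the 30015 genes of the deposited table. B2M, the light chain of class I molecules, was not analysed here. The groups were 3 Vector libraries (genotype WT, treatment none) and 3 shEZH2 libraries (genotype EZH2 knockdown, treatment none), all from cells grown in F10 medium with fetal bovine serum. The labels name no interferon or other agent in either group. By the methods, both were stable lines made with lentiviral particles and puromycin selection, the control carrying a scrambled shRNA. The table holds 1 knockdown line, headed sh1, so an effect of that shRNA other than on EZH2 cannot be told apart from the knockdown. The labels do not say whether the 3 libraries of a group came from separate cultures, so the p-values measure the spread between these libraries, which may be technical.

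Class I molecules carry peptides from inside the cell to its surface, where CD8 T cells read them. Proteasomes cut the peptides, and cells exposed to interferon-gamma exchange catalytic subunits for the immunosubunits PSMB8, PSMB9 and PSMB10. The TAP1 and TAP2 transporter brings the peptides into the endoplasmic reticulum, tapasin (TAPBP) bridges it to empty heavy chains such as HLA-B and HLA-C, and NLRC5 is the transactivator that works with RFX and NFY factors at the promoters of many of these genes. In melanoma and other tumours, loss of class I genes is a known route of escape from T cells, and PRC2 is known to silence class I genes in some tumour types.

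Values of single libraries are given in the order of replicates 1, 2 and 3 throughout. EZH2 itself had 483, 437 and 552 normalized counts in Vector and 237, 247 and 225 in shEZH2 libraries. Every shEZH2 library lay below every Vector library, and the log2 fold change was -1.04 (SE 0.14, 95% interval -1.38 to -0.71, limma adjusted p = 0.0142), or -1.12 without Vector replicate 2. The other core subunits did not pass the test, with log2 fold changes of 0.32 for EED and -0.26 for SUZ12 (without Vector replicate 2, 0.02 and -0.26), and in the list of 10 PRC2 genes EZH2 was the only one past the threshold. Normalized counts are the reads of a gene divided by the size factor of the library. A gene was called when it passed the rule of the study's methods, unadjusted p below 0.05 and a change of more than 1.5-fold. The p came from limma on log2(normalized count + 1) for 15251 genes that averaged 10 normalized counts or more, with Benjamini-Hochberg adjustment over all of them. Depth ran from 13400290 to 15923029 reads in Vector and from 16129171 to 19128939 in shEZH2 libraries. The melanocyte lineage markers summed to 75942 to 101541 normalized counts in Vector and 79883 to 86351 in shEZH2 libraries, and all 10 had reads, while the 5 leukocyte markers with a row summed to 10.2 to 36.1 and 16.2 to 24.0. Of the 10 lineage markers, 2 were called higher and 1 lower, where 7.55% and 7.07% of all genes were called. TYRP1 changed by 1.68, MLANA by 0.88 and TYR by -0.97 on the log2 scale. Without Vector replicate 2 these were 1.64, 0.39 (short of the threshold) and -1.22. In bulk RNA, fewer cells expressing a gene and less RNA per cell cannot be told apart.

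Vector replicate 2 stood apart from the other libraries. Against Vector replicates 1 and 3 it read short genes low and long genes high, by a median of -0.54 on the log2 scale among the shortest 20% of genes and 0.42 among the longest 20%. A chi-square set against sampling noise averaged 119 and 116 a gene between it and those libraries, and 2.15 between those themselves. Between shEZH2 libraries it was 23.4 for replicates 1 and 2, 14.2 for 1 and 3 and 6.41 for 2 and 3. Against the others of its group, shEZH2 replicate 1 deviated by 0.173 in the shortest 20% of genes and -0.179 in the longest. HLA-B, HLA-C, PSMB8 and PSMB9 lie in the second shortest 20% of genes (2323 to 3807 bases), and NLRC5 lies in the longest 20%. In that second group the median deviation of Vector replicate 2 was -0.375. HLA-B, HLA-C, TAP2, PSMB8, PSMB9 and TAPBP departed in Vector replicate 2 by more than the median of genes of their length, as given below. Fold changes are therefore given with all 6 libraries and without Vector replicate 2. Without that library, the spread of the control group rests on 2 libraries that were much alike.

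In shEZH2 cells the immunosubunits PSMB8 and PSMB9 were higher, and they were the only members called, 2 of 8 higher and 0 of 8 lower. Over all genes tested, 7.55% were called higher and 7.07% lower, 14.6% in all. The heavy chains, the transporter, tapasin and NLRC5 did not pass. TAP1 had an unadjusted limma p under 0.05 but a change of less than 1.5-fold. After adjustment over all genes, none of the 8 members was under 0.05 in limma. In limma, 2.28% of all genes were higher and 1.84% lower at an adjusted p under 0.05, 4.12% in all. With edgeR and DESeq2 on the recovered reads, PSMB9 alone of the 8 was under an adjusted 0.05. DESeq2 put more of all genes under that threshold than limma did, with counts given in the closing part. The limma shares are therefore not its background. The groups did not overlap in 4 members, PSMB8, PSMB9, TAP1 and TAP2, all higher in shEZH2, where 18.4% of all genes were apart in that direction, 16.5% in the other and 34.8% in either. For each of these 4 the exact two-sided permutation test gave p = 0.1, the smallest that 3 libraries against 3 allow.

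Without Vector replicate 2, PSMB9 was the 1 member called, where 7.05% of all genes were called higher and 5.64% lower, 12.7% in all. At an adjusted p under 0.05 PSMB8, PSMB9 and TAP1 then passed, all higher, beside 9.78% of all genes higher and 9.07% lower, 18.9% in all. The groups then did not overlap in 5 members, the same 4 higher and HLA-C lower, where 25.1% of all genes were apart higher, 24.9% lower and 50% in either direction. The median log2 fold change of the 8 members was 0.32 with all 6 libraries, against 0.04 over all genes, and 0.26 against -0.01 without Vector replicate 2.

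**Figure D1:**
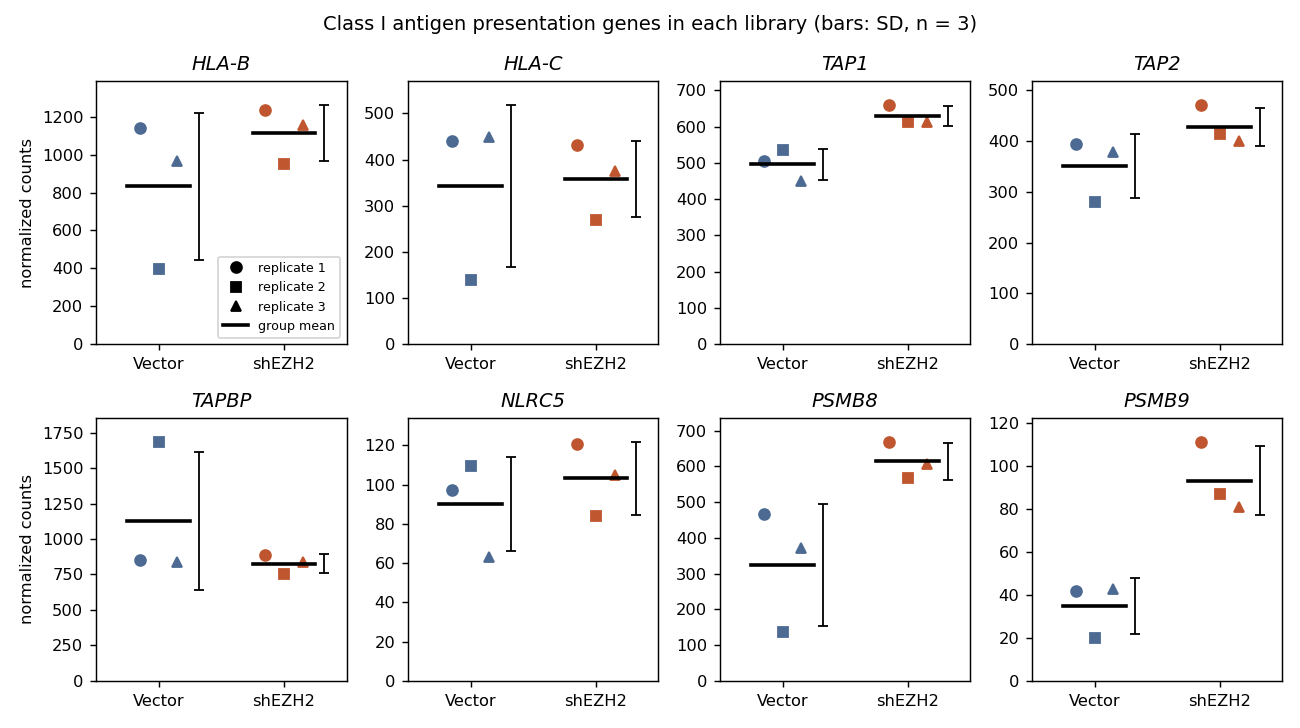
Normalized counts of the 8 class I genes (vertical axes, from 0) in the 3 Vector and 3 shEZH2 libraries, with marker shapes for replicates 1 to 3, horizontal lines for group means and bars for the SD. All shEZH2 points of PSMB8 and PSMB9 lie above all Vector points, while Vector replicate 2 (blue square) is the lowest point of HLA-B, HLA-C, PSMB8 and PSMB9 and, at 1686, the highest of TAPBP.

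The promoters of 4 members are shown because these genes pair naturally, TAP1 with PSMB9, which start back to back, and HLA-B with HLA-C, which are close copies. Annotated starts of TAP1 and PSMB9 lie 488 bases apart on opposite strands. The sequences are from RefSeq (GRCh38.p14), 5′ to 3′ on the strand of the gene, and end at the base before the annotated start. Capitals mark matches, on either strand, to the interferon-stimulated response element searched as GAAA, any 2 bases and GAAA, to the NF-kB consensus site, to the CCAAT box bound by NFY, and to TGACG, the core bound by CREB and ATF factors. The upstream stretch of TAP1, chr6:32853705-32853954 on the minus strand, and that of PSMB9, chr6:32853942-32854191 on the plus strand, share their first 13 bases on opposite strands and together span the interval between both starts.
TAP1: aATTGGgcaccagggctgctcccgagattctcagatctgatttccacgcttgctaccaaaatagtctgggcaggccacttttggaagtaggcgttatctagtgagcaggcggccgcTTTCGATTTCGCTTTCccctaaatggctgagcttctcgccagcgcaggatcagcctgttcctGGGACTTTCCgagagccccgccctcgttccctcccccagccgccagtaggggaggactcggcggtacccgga
PSMB9: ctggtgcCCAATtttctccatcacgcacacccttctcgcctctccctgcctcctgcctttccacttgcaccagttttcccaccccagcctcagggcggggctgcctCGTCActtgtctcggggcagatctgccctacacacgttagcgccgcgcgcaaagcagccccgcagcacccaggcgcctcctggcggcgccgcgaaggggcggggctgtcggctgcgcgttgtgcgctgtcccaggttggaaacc
HLA-B (chr6:31357180-31357429, minus strand): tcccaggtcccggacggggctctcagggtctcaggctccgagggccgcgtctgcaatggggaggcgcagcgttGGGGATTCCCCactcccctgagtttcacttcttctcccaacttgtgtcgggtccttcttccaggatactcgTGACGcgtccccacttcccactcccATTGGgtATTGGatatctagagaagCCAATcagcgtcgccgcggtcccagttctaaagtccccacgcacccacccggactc
HLA-C (chr6:31272093-31272342, minus strand): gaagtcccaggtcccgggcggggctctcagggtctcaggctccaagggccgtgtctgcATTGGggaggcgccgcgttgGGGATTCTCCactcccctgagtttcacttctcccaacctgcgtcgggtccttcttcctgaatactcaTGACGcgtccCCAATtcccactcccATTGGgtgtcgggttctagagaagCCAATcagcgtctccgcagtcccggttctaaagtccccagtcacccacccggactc

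The printed TAP1 stretch holds 2 overlapping matches to the response element, starting at -134 and -128 from the annotated start, and 1 NF-kB match at -72. The stretch before the other annotated TAP1 start, at 32852761, holds no match to any of the 4 motifs. The PSMB9 stretch holds a TGACG match at -144 and the CCAAT box in the bases it shares with TAP1, where the match lies at -249 in TAP1 and at -243 in PSMB9. HLA-B and HLA-C are identical at 226 of 246 aligned bases (91.9%), and both hold NF-kB, TGACG and CCAAT matches, with further CCAAT matches in each. TGACG begins at -106 in HLA-B and -105 in HLA-C, and the CCAAT match nearest the start is at -56 in both. Of the other members, TAP2 has 1 response element match, at -58, TAPBP has 2 overlapping ones, at -20 and -14, and 1 of 2 annotated starts of PSMB8 has TGACG at -69, and the other has no match. For comparison, among 35116 promoter stretches of the same length, 3.02% held the response element, 9.96% the NF-kB site, 32% the CCAAT box and 21.2% TGACG. These matches are letters in a window and were not tested as sites. No promoter is given for NLRC5.

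PSMB9 and PSMB8 had the largest log2 fold changes of the 8 members. Coordinates are on GRCh38. PSMB9 (beta1i; ENSG00000240065, chromosome 6 from 32844136 to 32859585 on the plus strand), a catalytic subunit that favours peptides suited to class I grooves, had 41.8, 19.8 and 42.8 normalized counts in Vector and 111, 87.0 and 81.2 in shEZH2 libraries. The lowest shEZH2 library was far above the highest Vector library, and the groups did not overlap. The group values were 34.8 ± 13 normalized counts (SD, n = 3) in Vector and 93.2 ± 16.0 (SD, n = 3) in shEZH2 cells, a ratio of 2.68, and the log2 fold change was 1.46 (SE 0.33, 95% interval 0.69 to 2.23, limma adjusted p = 0.0541). Without Vector replicate 2, the lowest of the 6, the ratio was 2.2 and the log2 fold change 1.11 (95% interval 0.66 to 1.56, limma adjusted p = 0.00285), still past the threshold.

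PSMB8 (beta5i; ENSG00000204264, chromosome 6 from 32840717 to 32844703 on the minus strand), the immunosubunit with chymotrypsin-like activity, had 466, 136 and 371 normalized counts in Vector and 669, 568 and 606 in shEZH2 libraries. All shEZH2 libraries were above all Vector libraries, but the Vector libraries spread from 136 to 466. The log2 fold change was 1.09 (SE 0.42, 95% interval 0.12 to 2.06, limma adjusted p = 0.177). Without Vector replicate 2 it was 0.56 (95% interval 0.27 to 0.85, limma adjusted p = 0.011), just short of 1.5-fold, and the ratio of means went from 1.89 to 1.47. PSMB8 was also short of the p threshold with any 1 shEZH2 library left out. It stayed past the threshold without Vector replicate 1, at 1.44, and without Vector replicate 3, at 1.28, and its direction did not change under any alternative run.

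PSMB10 (beta2i), the remaining immunosubunit, which lies outside the MHC on chromosome 16, had 43.9, 36.1 and 19.3 normalized counts in Vector and 46.7, 37.5 and 24.8 in shEZH2 libraries, and the groups overlapped. Its log2 fold change was 0.16 (SE 0.38, 95% interval -0.72 to 1.04, limma adjusted p = 0.814), and the sign turned without Vector replicate 3, without shEZH2 replicate 1, and with the gene length trend removed. Without Vector replicate 2 it was 0.26.

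Each immunosubunit takes the place of a constitutive subunit, PSMB8 that of PSMB5, PSMB9 that of PSMB6 and PSMB10 that of PSMB7. Of the constitutive partners, 1 of 3 was called, and higher, at a background of 7.55% of all genes higher and 7.07% lower. PSMB6 (beta1) had 448, 191 and 508 normalized counts in Vector and 992, 719 and 856 in shEZH2 libraries, and passed the threshold with a log2 fold change of 1.27 (SE 0.36, limma adjusted p = 0.0924), or 0.83 (95% interval 0.53 to 1.13, limma adjusted p = 0.00132) without Vector replicate 2. PSMB5 (beta5) and PSMB7 (beta2) were not called, with log2 fold changes of 0.71 and 0.53, or 0.26 and 0.30 without Vector replicate 2. A ratio within a library does not depend on its size factor, so RNA levels were compared as log2 of immunosubunit over partner. Exchange of the subunits in proteasomes was not measured. The ratio can still carry the length trend, since the partners are 1448 to 1787 bases long and PSMB8 and PSMB9 are 2997 and 3072.

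The log2 ratio of PSMB9 to PSMB6 was -3.39, -3.21 and -3.54 in Vector and -3.14, -3.03 and -3.38 in shEZH2 libraries. The groups overlapped, and the mean difference was 0.19 (exact permutation p = 0.2, two-sided). For PSMB8 over PSMB5 the ratio was -2.14, -2.57 and -2.50 in Vector and -2.15, -1.86 and -2.05 in shEZH2 libraries, a difference of 0.38 with overlap (exact permutation p = 0.2). For PSMB10 over PSMB7 the difference was -0.37 (exact permutation p = 0.5). The 3 differences without Vector replicate 2 were 0.28, 0.30 and -0.04, and the groups of PSMB9 over PSMB6 then did not overlap (exact permutation p = 0.2). PSMB9 thus rose by 1.46 beside a rise of 1.27 in its partner, and a change in their ratio was not separated from the spread between libraries. In all, 6 ratios are given, 3 fixed with the design and 3 chosen after the values were seen, and no adjusted p over them was below 0.3. Those chosen later were PSMB9 to TAP1, HLA-B to HLA-C and TAP1 to TAP2.

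The transporter genes were not called. TAP1 (ENSG00000168394, chromosome 6 from 32845209 to 32853978 on the minus strand) had 504, 534 and 450.0 normalized counts in Vector and 659.9, 612 and 613 in shEZH2 libraries, and all shEZH2 libraries lay above all Vector libraries. The log2 fold change was 0.34 (SE 0.13, 95% interval 0.03 to 0.65, limma adjusted p = 0.18), under 1.5-fold and so not called. It is the member least touched by the library that stood apart, and without Vector replicate 2 the log2 fold change was 0.40 (95% interval 0.15 to 0.65, limma adjusted p = 0.0292). TAP2 (ENSG00000204267, chromosome 6 from 32821833 to 32838780 on the minus strand) had 395, 279 and 378 normalized counts in Vector and 471, 414 and 400.0 in shEZH2 libraries. Its groups did not overlap, but the nearest libraries were 400.0 and 395, and the log2 fold change was 0.30 (SE 0.17, 95% interval -0.11 to 0.71, limma adjusted p = 0.337). Without Vector replicate 2 it was 0.15 (95% interval -0.12 to 0.42, limma adjusted p = 0.46).

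PSMB9 and TAP1 share the interval printed above, yet differed in size of change. The log2 ratio of PSMB9 to TAP1 was -3.56, -4.69 and -3.37 in Vector and -2.56, -2.80 and -2.90 in shEZH2 libraries. The groups did not overlap, and the difference was 1.12 (exact permutation p = 0.1, the least possible), or 0.71 without Vector replicate 2. This ratio and that of TAP1 to TAP2 were chosen after the values were seen, so neither is an independent test. The ratio of TAP1 to TAP2, the chains of the transporter, differed by 0.04 (exact permutation p = 1), or 0.25 with no overlap (exact permutation p = 0.1) without Vector replicate 2. The spans of these genes overlap in the authors' table. That of PSMB9 covers all 8770 bases of TAP1 and 568 bases of PSMB8 on the other strand, and in GENCODE v44 lifted to GRCh37 the exons of PSMB9 and PSMB8 share 139 bases, 4.16% of the exon bases of PSMB9. The strand setting of the counting is not given in the sources used here, so reads in that overlap cannot be assigned. TAP2 shares 2023 exon bases, 19.5% of its own, with ENSG00000250264, a gene on the same strand in the GRCh37 annotation, which leaves its level uncertain. The antisense RNA PSMB8-AS1 overlaps PSMB8 and TAP1 on the other strand and PSMB9 on the same strand, the last by 2360 bases of the spans. In the GRCh37 annotation PSMB8-AS1 and PSMB9 share 174 exon bases, 5.21% of the exon bases of PSMB9. PSMB8-AS1 had 2.09 to 9.31 normalized counts in Vector and 7.64 to 10.4 in shEZH2 libraries.

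Tapasin did not pass the test. TAPBP (ENSG00000231925, chromosome 6 from 33299694 to 33314387 on the minus strand) had 852, 1686 and 841 normalized counts in Vector and 885, 756 and 839 in shEZH2 libraries. A single library set its group difference, since Vector replicate 2 was far above every other library, and the other 5 ran from 756 to 885. The log2 fold change was -0.37 (SE 0.27, 95% interval -1.0 to 0.26, limma adjusted p = 0.438), and without Vector replicate 2 it was -0.04 (95% interval -0.28 to 0.20, limma adjusted p = 0.852).

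The heavy chains did not pass the test. HLA-B (ENSG00000234745, chromosome 6 from 31269491 to 31357188 on the minus strand) had 1139.8, 398 and 964 normalized counts in Vector and 1238, 949 and 1154 in shEZH2 libraries. The groups overlapped, and the log2 fold change was 0.54 (SE 0.37, 95% interval -0.32 to 1.41, limma adjusted p = 0.403). Without Vector replicate 2 it was 0.08 (95% interval -0.20 to 0.36, limma adjusted p = 0.729). HLA-C (ENSG00000204525, chromosome 6 from 31268749 to 31272130 on the minus strand) had 440.2, 139.7 and 448 normalized counts in Vector and 431, 269 and 376 in shEZH2 libraries. With all 6 libraries the groups overlapped and the log2 fold change was 0.22 (SE 0.45, 95% interval -0.82 to 1.26, limma adjusted p = 0.783). The direction depended on 1 control library, since without Vector replicate 2 it was -0.33 (95% interval -0.71 to 0.04, limma adjusted p = 0.203), when every shEZH2 library lay below both remaining Vector libraries.

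Within a library, HLA-B stood higher relative to HLA-C in shEZH2 cells. Its log2 ratio to HLA-C was 1.37, 1.5 and 1.10 in Vector and 1.52, 1.81 and 1.61 in shEZH2 libraries, a difference of 0.32. The groups did not overlap, with nearest libraries at 1.5 and 1.52 (exact permutation p = 0.1, the least possible). The difference without Vector replicate 2 was 0.41, and the groups again did not overlap. Heavy chain genes are near copies of each other and differ between people, and the span of HLA-B in the table covers 2640 bases of the HLA-C span on the same strand, so the counting may have split or dropped reads between them. In the GRCh37 annotation the exons of HLA-B also share 1421 bases, 30.7% of its own, with the pseudogene DHFRP2. This ratio is uncertain for those reasons. It was also chosen after the values were seen, so its separation is not an independent test.

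NLRC5 (ENSG00000140853, chromosome 16 from 56989485 to 57083531 on the plus strand), the class I transactivator, was the longest and least abundant member by length. It had 97.2, 109 and 63.1 normalized counts in Vector and 121, 83.8 and 105 in shEZH2 libraries, with overlapping groups. The log2 fold change was 0.22 (SE 0.26, 95% interval -0.38 to 0.82, limma adjusted p = 0.621), and without Vector replicate 2 it was 0.38 (95% interval -0.11 to 0.86, limma adjusted p = 0.271). With Vector replicate 3 left out the sign turned, at -0.01.

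**Figure D2:**
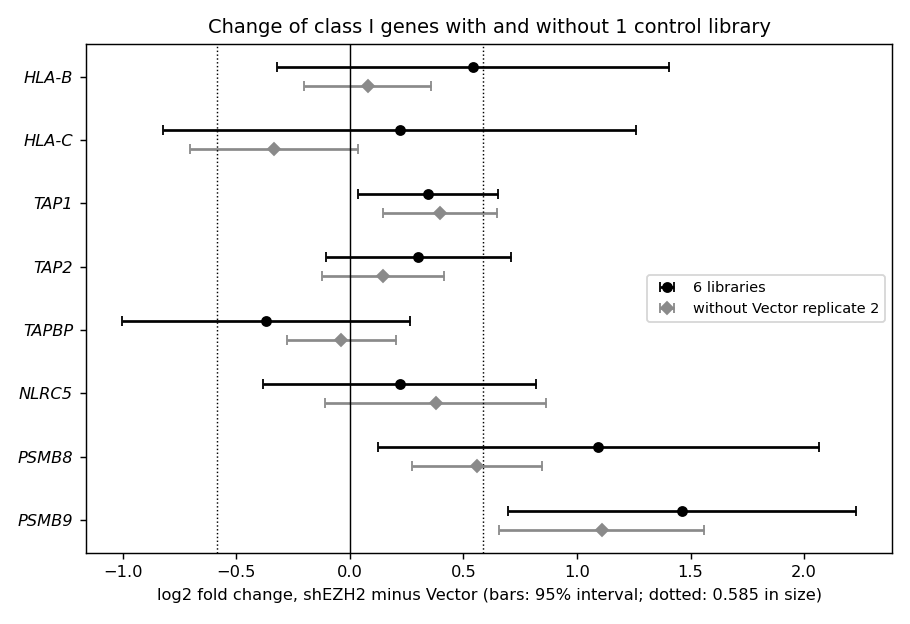
Log2 fold change of each class I gene (horizontal axis, shEZH2 minus Vector), with 95% intervals from limma, for all 6 libraries (black circles) and without Vector replicate 2 (grey diamonds). The interval of PSMB9 stays above 1.5-fold (dotted line) in both, that of TAP1 lies above 0 in both, and HLA-C changes sign.

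Levels of different genes were compared per kilobase of gene length, as the mean over 6 libraries. HLA-B was highest, at 319 normalized counts per kilobase, above 85.7% of the genes tested, followed by TAPBP at 193, PSMB8 at 157, HLA-C at 140.0 and TAP1 at 117. TAP2 had 61.0, PSMB9 20.8 and NLRC5 7.8, the last above 11% of the genes. The order of TAPBP and HLA-B in Vector libraries turned with replicate 2, and PSMB8, HLA-C and TAP1 in Vector cells, at 108, 137 and 103, did not differ beyond their spread. In shEZH2 cells PSMB8 rose to 205 per kilobase, above TAPBP at 164.

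The departure of Vector replicate 2 was larger in several members than in other genes of their length. Its log2 deviation from Vector replicates 1 and 3 was -1.66 for HLA-C, -1.60 for PSMB8, -1.39 for HLA-B and -1.06 for PSMB9. Among genes of similar length (the ratio of lengths at least 0.8), the median deviations were -0.48, -0.37, -0.36 and -0.36, and 3.84% of those near the length of PSMB8 lay lower than PSMB8. TAP2 was low as well, at -0.47, where genes of like length had a median of 0.105 and 13.9% of them lay lower. TAPBP went the other way, at 0.99, above 96.3% of genes of like length, and NLRC5 was at the median of its length class. With a loess trend on gene length removed from every library, the log2 fold changes were 1.29 for PSMB9 (limma adjusted p = 0.023), 0.91 for PSMB8 (limma adjusted p = 0.11) and 0.29 for TAP1 (limma adjusted p = 0.191). What moved these genes in that library was not tested.

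**Figure D3:**
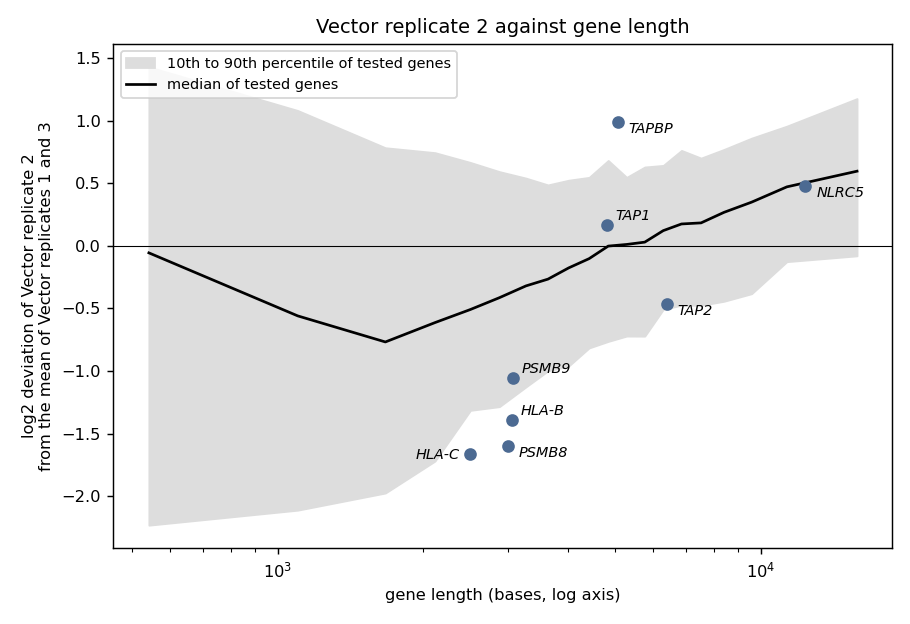
Log2 deviation of Vector replicate 2 from the mean of Vector replicates 1 and 3 (vertical axis) against gene length in bases (log axis), with the median (line) and the 10th to 90th percentile (grey) of the 15251 tested genes and the 8 class I genes as points. HLA-B, HLA-C and PSMB8 lie below the grey band and TAPBP above it.

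The rest of the pathway was read from 5 lists with 47 genes, of which 45 passed the minimum mean. Of these, 4 were called higher and 2 lower, at a background of 7.55% and 7.07%, and their median log2 fold change was 0.11, or -0.08 without Vector replicate 2. Among 6 tested heavy chains and relatives outside the members, MICA, a stress-induced ligand of the killer cell receptor NKG2D that carries no peptide, was the only one called. It had 811, 540.2 and 845 normalized counts in Vector and 1669, 1500.5 and 1619 in shEZH2 libraries. Its groups were well apart, and the log2 fold change was 1.15 (SE 0.19, 95% interval 0.70 to 1.60, limma adjusted p = 0.0246), or 0.94 (95% interval 0.72 to 1.17, limma adjusted p = 5.48e-05) without Vector replicate 2. HLA-E, the heavy chain read by natural killer cell receptors, HLA-F, MR1 and HFE were not called, with log2 fold changes of -0.11, 0.43, -0.47 and 0.33, or -0.21, 0.07, -0.45 and 0.38 without Vector replicate 2.

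Of 11 peptide supply genes, 1 was higher and 1 lower. BLMH, a cytosolic peptidase that trims peptides, had 909.8, 674 and 879 normalized counts in Vector and 218, 192 and 181 in shEZH2 libraries. The groups were far apart, at 0.24 of the control mean, and the log2 fold change was -2.04 (SE 0.17, 95% interval -2.43 to -1.66, limma adjusted p = 0.00317), or -2.18 (95% interval -2.46 to -1.90, limma adjusted p = 8.83e-07) without Vector replicate 2. THOP1, a peptidase that mostly destroys such peptides, had a log2 fold change of 0.60 (limma adjusted p = 0.0631), just inside the threshold, and 0.62 without Vector replicate 2. It was outside it with DESeq2 and with edgeR on RLE factors, without Vector replicate 1 and without shEZH2 replicate 1. It is named because it was the 1 gene called higher, after its value was seen. The proteasome activator genes PSME1 and PSME2 and the trimming enzymes ERAP1 and ERAP2 were not called, with log2 fold changes of 0.76, 0.47, -0.18 and -0.24. Their values without Vector replicate 2 were 0.22, -0.08, -0.12 and 0.09, so the signs of PSME2 and ERAP2 turned.

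Of 7 loading and folding genes, only UGGT1, which checks the folding of glycoproteins, was called, and lower. It had 4926, 9789 and 5112 normalized counts in Vector and 3503, 4129 and 4351 in shEZH2 libraries, with Vector replicate 2 far above the other controls, and its log2 fold change of -0.66 became -0.34 without it, short of the threshold. Of 13 transcription factor genes, only RFXAP, a subunit of the RFX complex that binds class I and class II promoters, was called. It had 52.3, 40.7 and 63.1 normalized counts in Vector and 102, 87.8 and 101 in shEZH2 libraries, and the log2 fold change was 0.90 (SE 0.22, 95% interval 0.40 to 1.41, limma adjusted p = 0.0653), or 0.74 (95% interval 0.33 to 1.16, limma adjusted p = 0.017) without Vector replicate 2. IRF1 and RFX5 were not called, with log2 fold changes of 0.12 and -0.05, or -0.22 and -0.08 without Vector replicate 2, where the sign of IRF1 turned. Of 8 genes of interferon-gamma signalling, only SOCS3, an inhibitor of JAK kinases, was called, higher by 0.69 (limma adjusted p = 0.0734) and by 0.58 without Vector replicate 2, just short of the threshold. JAK1 and JAK2 had log2 fold changes of -0.41 and -0.55, or -0.26 and -0.43 without Vector replicate 2, and were not called. Both were lower in each knockdown library than in any control, as were 16.5% of all genes.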

How the data were processed

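The poly-A RNA of 6 HMV-II libraries was sequenced on an Illumina NovaSeq instrument. Gene counts came from featureCounts (v1.5.0-p3) and the authors also used DESeq2 1.20.0, both per the labels. The deposited table holds signal values, counts divided by a size factor per library. All values (100%, within 0.01) were whole multiples of the value of 1 read in their library, which gave back the reads for 30015 genes. All 6 single-library columns were used. The gene length column (other) was used per the file headers. The authors' log2 fold changes and p-values, also deposited, were not used. Library columns were tied to samples by group letter and replicate number. Coordinates are GRCh38, since 85.9% of 15287 coding genes start within 1000 bases of RefSeq on GRCh38 and 4.15% of GENCODE on GRCh37, although the submitters' processing notes name hg19. The aligner is not given in the sources used here.

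Groups were compared with limma 3.58.1 (lmFit, eBayes with trend) on log2(normalized count + 1), minimum mean 10, without a block, so fold changes of low genes are understated. Intervals are 95%. Alternatives were edgeR 4.0.16 and DESeq2 1.42.0 on recovered reads, TMM scaling, pseudocounts 0.1 and 5, no minimum and a mean of 50, stricter thresholds, a replicate block, removal of a length trend, and each library left out. Models were tested on simulated data. Members, lists and tests were chosen with earlier results of these data known, and some ratios after these values were seen. Named genes were the members, EZH2, EED, SUZ12, the proteasome partners and up to 10 called genes of the lists with the largest changes. Other genes of the lists were named after their values were seen. Results of some listed genes, and 1 further ratio, are not reported here. RefSeq promoters matched 7 of the 8 members with a row.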

Additional observations from a re-analysis of the deposited data

How the results depend on the processing

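PSMB9 kept its direction and passed the threshold of p and fold change under every alternative run except a threshold on the adjusted p, where its log2 fold change of 1.46 had an adjusted p of 0.0541 in limma. Its adjusted p was 0.0469 and 0.0461 in edgeR (TMM and RLE factors) and 0.00131 in DESeq2. PSMB8, at 1.09, did not pass with an adjusted p, without Vector replicate 2 or without any 1 shEZH2 replicate. Leaving out 1 library at a time gave log2 fold changes of 1.11 to 1.65 for PSMB9, 0.56 to 1.44 for PSMB8, 0.27 to 0.40 for TAP1, 0.15 to 0.39 for TAP2, -0.54 to -0.037 for TAPBP, 0.078 to 0.84 for HLA-B, -0.33 to 0.50 for HLA-C, -0.014 to 0.38 for NLRC5, -1.12 to -0.96 for EZH2 and -0.17 to 0.40 for PSMB10. HLA-B passed only without Vector replicate 1, at 0.84. The sign of HLA-C turned to -0.00475 with the length trend removed, that of PSMB10 to -0.10, and that of the TAP1 to TAP2 ratio to -0.044. That ratio ran from -0.088 to 0.25 with libraries left out.

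Members called higher numbered 2, 0 with an adjusted p and 1 to 3 with libraries left out (the most without Vector replicate 1, the fewest without Vector replicate 2 or any 1 shEZH2 library). Of the 15251 genes tested, 1525, 1075 and 1431 were called higher without Vector replicate 1, 2 and 3 in turn. Leaving out shEZH2 replicate 1, 2 or 3 gave 849, 955 and 872 such genes. Pathway genes called higher numbered 4, and 1 when a log2 change of 1 was asked for or on the adjusted p. They numbered 3 with DESeq2, edgeR on RLE factors or the length trend removed, and 3 to 5 when libraries were left out. Pathway genes called lower numbered 2. These fell to 1 when a log2 change of 1 was asked for, on the adjusted p or with the length trend removed. With libraries left out they ran from 1 to 4. The most came without Vector replicate 1, the fewest without Vector replicate 2 or shEZH2 replicate 1 or 3. Genes of the whole set called lower numbered 1318, 860 and 1261 without Vector replicate 1, 2 and 3 in turn. Leaving out shEZH2 replicate 1, 2 or 3 gave 773, 1067 and 889. Over all genes, 1151 higher and 1078 lower became 463 and 335 when a log2 change of 1 was asked for and 345 and 279 on the adjusted p, both stricter by construction. The counts at an adjusted p under 0.05, 348 and 281, were 770 and 874 with DESeq2 and 675 and 645 with the length trend removed, and ran from 3 to 1491 higher and 1 to 1384 lower with libraries left out, the upper ends without Vector replicate 2 and the lower ends without shEZH2 replicate 3. The cause was not tested. The other alternatives (edgeR, TMM scaling, pseudocounts, minimum means) changed no call of a member. With the replicate number as a block, the higher adjusted count was 224 and no member's call changed. Same-numbered libraries deviated together in replicates 1 and 2 (r = 0.275 and 0.219 across genes) but not in replicate 3 (r = -0.111). Of libraries with different numbers, Vector replicate 3 and shEZH2 replicate 1 had r = 0.25. Vector replicate 2 and shEZH2 replicate 3 had r = 0.14, and the other such pairs were negative. The numbers were therefore not taken as a pairing. Depth limits PSMB9, PSMB10 and NLRC5 most, at 34.7 to 96.6 normalized counts on average.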

Other observations

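Class II genes, which present peptides from outside the cell and are mostly used by immune cells, gave 8 tested genes, 3 of them called higher and none lower, where 7.55% of all genes were called higher. HLA-DMB, a chain of the HLA-DM peptide exchanger, had 18.8, 9.31 and 19.3 normalized counts in Vector and 39.0, 41.5 and 43.0 in shEZH2 libraries, and its log2 fold change was 1.39 (limma adjusted p = 0.0642), or 1.07 without Vector replicate 2. HLA-DPA1 had 12.5, 15.1 and 22.4 normalized counts in Vector and 36.2, 27.9 and 34.4 in shEZH2 libraries, a log2 fold change of 0.97 (limma adjusted p = 0.123), or 0.92 without Vector replicate 2. HLA-DRB1 had 279, 94.3 and 286 normalized counts in Vector and 493, 346 and 399 in shEZH2 libraries, and its log2 fold change fell from 1.05 to 0.53 without Vector replicate 2, short of the threshold. In the 6 libraries the partner chain HLA-DRA had only 4.66 to 13.6 normalized counts, under the minimum mean, and HLA-DRB1 is a gene with near copies, so its reads are uncertain. The class II transactivator CIITA was not called, at -0.40 (-0.13 without Vector replicate 2), nor was the invariant chain gene CD74, at -0.53 (-0.65 without it). The leukocyte marker PTPRC had 5.09 to 11.6 normalized counts in Vector and 9.55 to 10.5 in shEZH2 libraries.

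Of 7 tested genes beside the members, 2 were called higher and 0 lower, where 7.55% and 7.07% of all genes were called. These were MICA in the MHC region, described above, and CPNE2, which neighbours NLRC5 on chromosome 16. MICA changed by 1.15 on the log2 scale (0.94 without Vector replicate 2, still past the threshold). CPNE2 had a log2 fold change of 0.61 (limma adjusted p = 0.0545), and 0.56 without Vector replicate 2, short of the threshold. In the MHC region BRD2, RGL2, DAXX, ZBTB22 and HLA-DMA were not called. Their log2 fold changes were -0.04, 0.11, 0.23, 0.51 and 0.57, or -0.04, 0.04, 0.05, 0.26 and 0.11 without that library. Markers of other cell types were mixed, and not all were low. LUM had 120 to 166 normalized counts in Vector and 209 to 275 in shEZH2 libraries, and ITGAX had 213 to 229 and 156 to 194. The 5 fibroblast markers had LUM higher and COL1A2 lower among 2 tested, and the endothelial, keratinocyte and antigen-presenting cell lists gave 2 tested genes, VWF and ITGAX, neither called. Apart from CPNE2 and MICA, the genes of this paragraph were named after their values were seen.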
